A study of Mus musculus with 6 samples.

Results

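The urea cycle is the pathway by which the liver turns ammonia, set free when amino acids are broken down, into urea. It runs through 5 enzymes, encoded in the mouse by Cps1, Otc, Ass1, Asl and Arg1, and the transcripts of all 5 were measured. Members were taken as every probe set of the array whose single gene symbol in the platform annotation is one of these genes, which gave 6 of 12488 probe sets: 2 for Asl and 1 for each of the others. All 6 passed the filter on low values. Cps1 and Otc work in the mitochondrion and make citrulline from ammonia, bicarbonate and ornithine. Ass1, Asl and Arg1 work in the cytosol, joining citrulline with aspartate, releasing arginine and fumarate, and splitting arginine into urea and ornithine. The pathway is known for its strength in the hepatocytes around the portal vein and for following the protein content of the diet, glucagon and glucocorticoids.

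Liver RNA came from C57BL/6 mice that had eaten a high-fat diet of Western style, or else a low-fat diet, over 12 weeks, and each diet had 3 Affymetrix arrays. C57BL/6 is an inbred laboratory strain, and no genotype or agent other than the diet is given for either group. The labels carry LDL receptor deficiency as a keyword, but the strain of all 6 samples is named as C57BL/6 alone. The sex and age of the mice, the makeup of the diets, their protein content, the time of day and the feeding state at collection are unstated in the labels. Arrays of a diet are labelled as replicates, with no word on whether each stands for 1 mouse or for a pool, so p-values measure the spread between these arrays.

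No urea cycle transcript differed between the diets beyond the spread between arrays. In limma's test of high-fat against low-fat arrays, 0 of the 6 probe sets reached an adjusted p of 0.05, where 0.827% of the 8950 tested probe sets did, and 0 reached an unadjusted p of 0.05, where 9.07% did. Of the 6, 5 had a log2 fold change below 0, against 49.5% of all tested probe sets. Their median log2 fold change was -0.22, against 0.0026 over all tested probe sets. The smallest adjusted p was 0.618, that of 1 Asl probe set, and the diets' arrays overlapped on each of the 6 probe sets, whereas 14.1% of all tested probe sets had arrays that did not overlap. Within this result the members took different courses. Cps1, Otc and Arg1 shared a course over the high-fat arrays, though Cps1 ran differently over the low-fat arrays. Ass1 did not follow the shared course, and the probe sets of Asl differed from one another.

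Cps1, carbamoyl phosphate synthetase 1, makes the first intermediate of the cycle from ammonia and bicarbonate and sets the pace of entry. Its intensity (the array's linear brightness of a probe set) was 29992, 23351 and 20701 on high-fat arrays 1, 2 and 3, against 31325, 27838 and 25653 on low-fat arrays 1, 2 and 3. High-fat arrays 2 and 3 lay below every low-fat array, while high-fat array 1 lay above low-fat arrays 2 and 3. The means were 24681 ± 4786 on the high-fat diet and 28272 ± 2861 on the low-fat diet (SD, n = 3 each). The log2 fold change was -0.21 ± 0.18 (SE), and limma gave an adjusted p of 0.830. Its 95% interval ran from -0.61 to 0.20, which covers ratios of high-fat to low-fat from 0.653 up to 1.15.

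Otc, ornithine transcarbamylase, joins carbamoyl phosphate with ornithine to give citrulline, and its gene lies on the X chromosome. Its probe set read 8736, 5961 and 5618 on the high-fat arrays, against 7344, 8180 and 7924 on the low-fat arrays. The highest of all 6 values and the lowest pair both belonged to the high-fat diet. The coefficient of variation was 25.3% among high-fat arrays and 5.48% among low-fat arrays. Mean intensities were 6772 ± 1710 on the high-fat diet and 7816 ± 429 on the low-fat diet (SD, n = 3 each), a log2 fold change of -0.23 ± 0.17 (SE) with an interval from -0.62 to 0.16 (adjusted p = 0.787).

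Arg1, liver arginase, releases urea from arginine and closes the cycle. It read 17484, 12070 and 10573 on the high-fat arrays, against 15279, 16948 and 14903 on the low-fat arrays. The order was that of Otc at both ends, with high-fat array 1 highest and high-fat arrays 2 and 3 below every low-fat array. Its means were 13375 ± 3636 on the high-fat diet and 15710 ± 1089 on the low-fat diet (SD, n = 3 each). The log2 fold change was -0.26 ± 0.19 (SE), with an interval from -0.69 to 0.17 and an adjusted p of 0.781. Arg1 is also made by some macrophages, whose markers are given below.

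**Figure D1:**
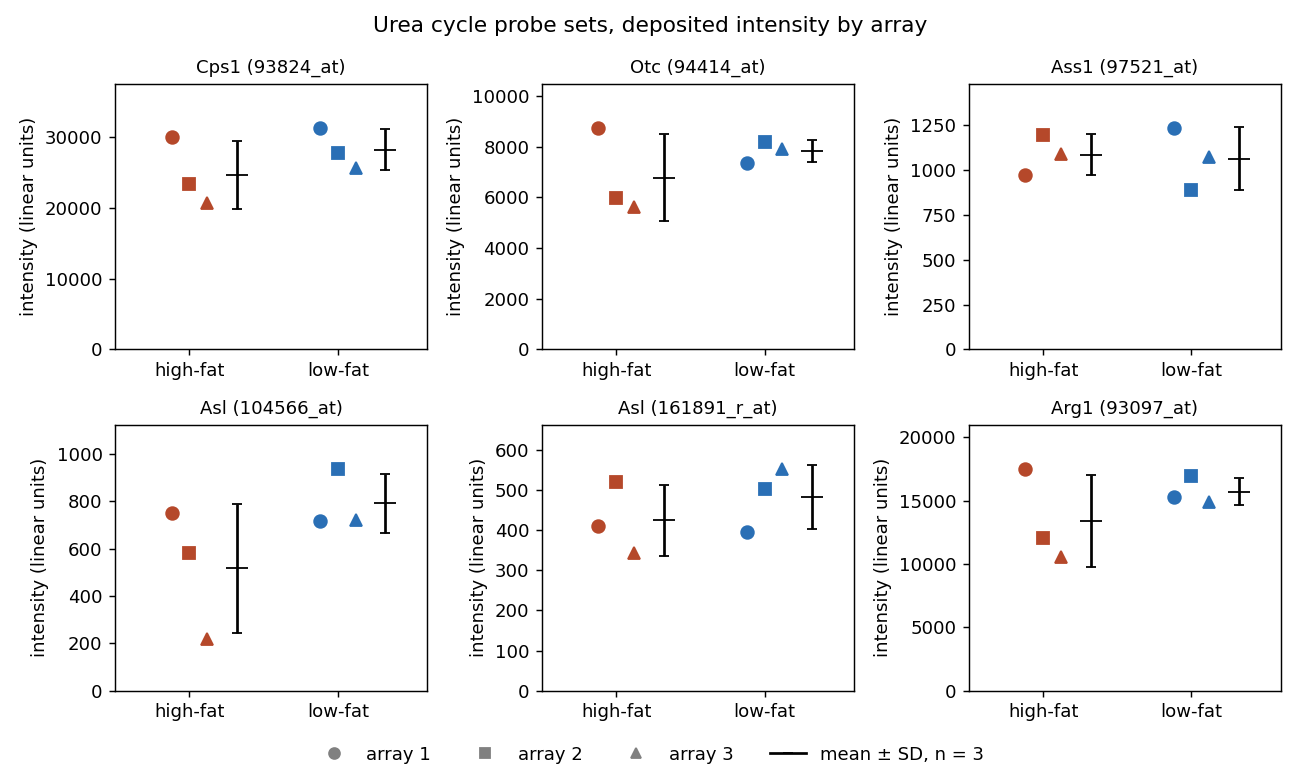
Deposited linear intensity (vertical axes, from 0) of each urea cycle probe set on the 3 high-fat and 3 low-fat arrays, with the mean and SD of each diet (n = 3) as a black bar. For Cps1, Otc and Arg1, high-fat arrays 2 and 3 lie below the low-fat arrays and high-fat array 1 lies among or above them, while the Ass1 points of the diets are mixed.

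Ass1, argininosuccinate synthase, condenses citrulline with aspartate and brings the second nitrogen atom into the cycle. It gave 973, 1197 and 1088 on the high-fat arrays, against 1234, 887 and 1070 on the low-fat arrays. The lowest and the highest value both came from the low-fat diet, and high-fat array 1, the highest for Otc and Arg1, was the lowest high-fat array here. Mean intensities were 1086 ± 112 on the high-fat diet and 1064 ± 174 on the low-fat diet (SD, n = 3 each). The log2 fold change was 0.038 ± 0.16 (SE), with an interval from -0.32 to 0.39 (adjusted p = 0.981). Its sign turned to -0.035 without high-fat array 2 and to -0.087 without low-fat array 2, so no direction is given. Whether Ass1 differed from the other members in its response was not tested.

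The promoters of Otc and Ass1 are printed because these are the members whose order over the arrays differed while both had a promoter in the RefSeq table used, which held 2 of the 5 genes. Each stretch is the 250 bases before the RefSeq start of the gene in GRCm38.p6, read 5′ to 3′ on the plus strand. That of Otc is chrX:10252055-10252304 and that of Ass1 is chr2:31470020-31470269. Capitals mark matches to any of 5 motifs searched on both strands. They are the TATA box (TATAA), the box with the letters CCAAT, the GC box that Sp1 binds (GGGCGG), an E-box (CACGTG) and the core of sites bound by the nuclear receptor HNF4 (AAAGTNCA). None of these matches overlaps another.
Otc: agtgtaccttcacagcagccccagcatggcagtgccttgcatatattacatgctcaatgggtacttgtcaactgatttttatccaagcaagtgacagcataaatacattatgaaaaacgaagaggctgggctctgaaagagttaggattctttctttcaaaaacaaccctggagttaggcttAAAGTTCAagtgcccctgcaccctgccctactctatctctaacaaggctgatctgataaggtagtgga
Ass1: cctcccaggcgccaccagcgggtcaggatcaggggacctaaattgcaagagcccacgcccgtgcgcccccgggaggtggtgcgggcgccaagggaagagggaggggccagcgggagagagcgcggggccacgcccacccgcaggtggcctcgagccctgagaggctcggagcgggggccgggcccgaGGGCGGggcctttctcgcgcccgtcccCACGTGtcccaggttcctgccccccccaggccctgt
The Otc stretch held 1 match, AAAGTTCA, starting 68 bases before the start, a motif found in 3.53% of all 32851 promoter stretches of this length. The Ass1 stretch held GGGCGG 63 bases and CACGTG 36 bases before the start, motifs found in 32.7% and 6.02% of the stretches. The TATA box and the CCAAT box were in neither, and in 22.8% and 33.9% of all stretches. The share of G and C was 43.6% for Otc and 75.6% for Ass1, against a median of 52.4% over all stretches, with 1 and 23 CG pairs. The motifs were chosen with these sequences in view, and a match is a description of the letters, not of a bound factor.

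Asl, argininosuccinate lyase, splits argininosuccinate into arginine and fumarate, and it was the member read by 2 probe sets. Probe set 104566_at read 750, 580 and 219 on the high-fat arrays, against 718, 935 and 722 on the low-fat arrays. High-fat array 3 was by itself far below the rest, at 0.28 times the geometric mean of the low-fat arrays, and high-fat array 2 was also below every low-fat array. The means were 516 ± 271 on the high-fat diet and 792 ± 124 on the low-fat diet (SD, n = 3 each). With a log2 fold change of -0.78 ± 0.39 (SE), an interval from -1.67 to 0.11 and an adjusted p of 0.618, it was the lowest of the members, and 1.97% of all tested probe sets had a lower fold change. Without high-fat array 3 the log2 fold change was -0.25 (adjusted p = 0.761), and without high-fat array 1 it was -1.14 (adjusted p = 0.367).

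Probe set 161891_r_at of Asl, whose suffix marks relaxed rules of probe selection, read 411, 519 and 344 on the high-fat arrays, against 396, 501 and 552 on the low-fat arrays. High-fat array 3 was again the lowest of the 6, at 0.72 times the geometric mean of the low-fat arrays, but high-fat array 2 was the second highest. Its log2 fold change was -0.19 ± 0.22 (SE), with an interval from -0.68 to 0.30 and an adjusted p of 0.886. It moved to -0.35 when high-fat array 2 was dropped and to -0.050 when high-fat array 3 was, and dropping low-fat array 1 or 3 gave -0.33 or -0.089 (adjusted p from 0.848 to 0.974). Both Asl probe sets thus had a fold change below 0, and they differed in the size of the drop on high-fat array 3 and in the place of high-fat array 2. No level was set against another between probe sets, since each has its own brightness.

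**Figure D2:**
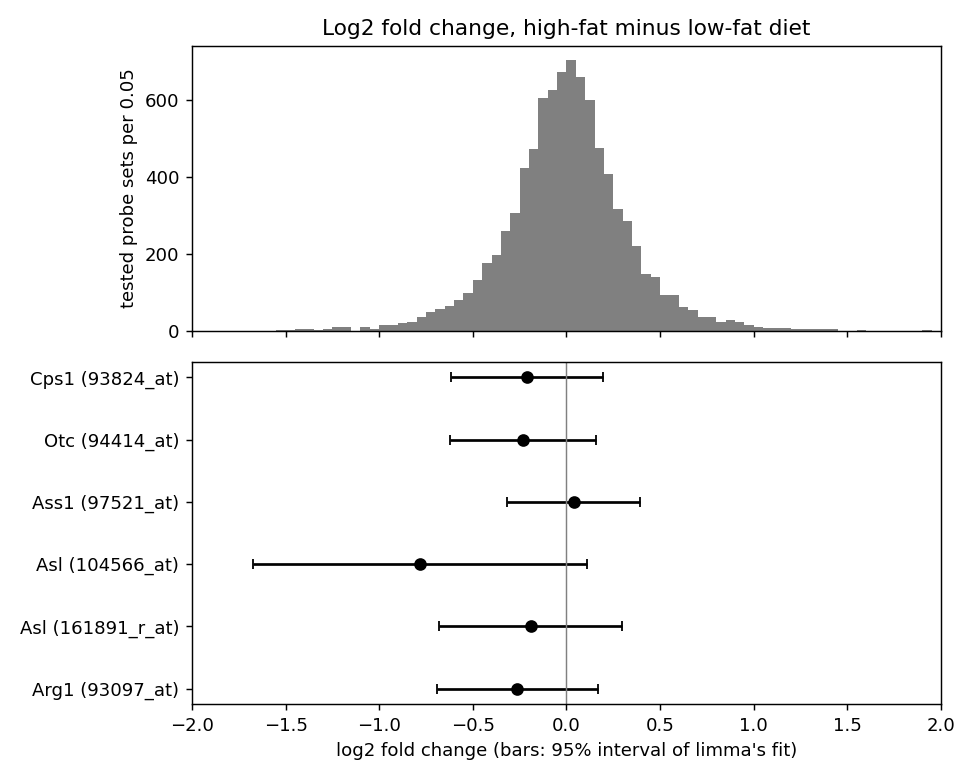
The upper panel counts all tested probe sets by log2 fold change, high-fat minus low-fat, in steps of 0.05, with 15 probe sets beyond the axis limit of 2 left out. The lower panel gives the 6 urea cycle probe sets with 95% intervals from limma's fit, and all 6 intervals include 0.

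Set array by array, the difference lay in 2 of the 3 high-fat arrays, a pattern noticed in these values and not tested. On high-fat array 1 the median difference of the 6 probe sets from the low-fat mean was 0.011 on the log2 scale, on high-fat array 2 it was -0.32 and on high-fat array 3 it was -0.48. Over all tested probe sets the same medians were -0.026, 0.012 and 0.020. High-fat array 3 was the lowest of the 6 arrays for 5 of the 6 probe sets, all but that of Ass1, where 14.6% of all tested probe sets had their lowest value on that array. High-fat arrays 2 and 3 both lay below every low-fat array for 4 of the 6, those of Cps1, Otc and Arg1 and 104566_at of Asl, where 11.4% of all tested probe sets did.

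Leaving out high-fat array 1 moved the log2 fold changes to -0.36 for Cps1, -0.43 for Otc and -0.47 for Arg1, with adjusted p-values of 0.553, 0.274 and 0.282 in limma's test. At an unadjusted p of 0.05, 4 of the 6 probe sets then passed, those named above, where 8.89% of all tested probe sets did, and 0 passed after adjustment. That array was picked out because it broke the pattern, so the count is a description. Leaving out high-fat array 3 moved them the other way, to -0.090 for Cps1, -0.11 for Otc and -0.11 for Arg1, with adjusted p-values of 0.923, 0.887 and 0.902. Of the low-fat arrays, leaving out array 1 moved Cps1 to -0.13 (adjusted p = 0.940). The size of the differences therefore rested on single arrays, and with each array left out in turn 0 of the 6 probe sets passed.

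**Figure D3:**
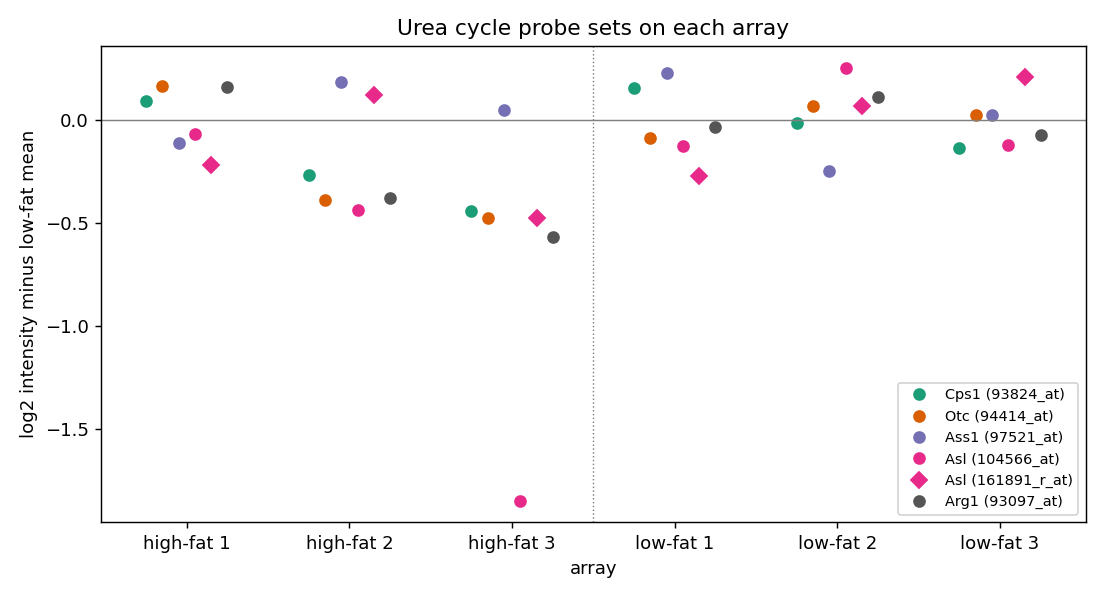
Log2 intensity of each urea cycle probe set minus its mean over the low-fat arrays (vertical axis), on each of the 6 arrays. Cps1, Otc and Arg1 keep together at or above 0.09 on high-fat array 1 and at or below -0.27 on high-fat arrays 2 and 3, and the Asl probe set 104566_at reaches -1.85 on high-fat array 3.

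The brightness of other hepatocyte transcripts varied over the same arrays. Summed over 8 measured hepatocyte markers, with 0 of them under the floor intensity of 68.9 on all arrays, intensity was 156286, 133231 and 123772 on high-fat arrays 1, 2 and 3, against 158852, 150083 and 126530 on low-fat arrays 1, 2 and 3. Alb, the plasma albumin gene, was chosen from this list after its values were seen. It read 49245, 41939 and 38398 on the high-fat arrays, against 46802, 42302 and 34920 on the low-fat arrays. Fgb and Hnf4a of the same list, picked in the same way, were instead highest in each diet on array 3. Fgb read 6610, 5865 and 9079 against 5093, 7476 and 9173, and Hnf4a read 666, 566 and 1772 against 940, 743 and 1752. Of the 8 markers, 4 had a log2 fold change below 0. Albumin and the summed markers were lowest among the low-fat arrays on array 3. Their part in the urea cycle values was not tested. In whole liver, fewer hepatocytes and less RNA per hepatocyte cannot be told apart. After quantile normalization, which gives every array the same distribution of intensities, the log2 fold changes were -0.24 for Cps1, -0.27 for Otc and -0.27 for Arg1 (adjusted p = 0.547, 0.619 and 0.671).

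Of 10 markers of periportal hepatocytes, where the cycle is strongest, 6 were measured, and 5 of them had a log2 fold change below 0, with 0 past the threshold. Their summed intensity ran from 40969 to 62896 on the high-fat and from 52896 to 58639 on the low-fat diet. The highest sum was on high-fat array 1. G6pc, the marker with a log2 fold change above 0 (0.58, adjusted p = 0.730), read 15875.9 there, against 5181.9, 6525.5 and 12914.5 on the low-fat arrays. Of 12 pericentral markers, 10 were measured, and their sums ran from 48928 to 73132 on the high-fat and from 55584 to 68285 on the low-fat diet. Of the 9 tested ones, 5 had a log2 fold change below 0, with a median of -0.049. Among them 1 passed the threshold, the neutral amino acid transporter gene Slc1a4, named for that reason. It rose (log2 fold change 2.23, adjusted p = 0.0334). Of 15 macrophage markers, 12 were measured, with 0 past the threshold and sums from 9464 to 11396 on the high-fat and from 7181 to 8762 on the low-fat diet. The macrophage sums did not overlap between the diets, and high-fat array 3, where Arg1 was lowest, had the highest of them. All 6 markers of kidney, another organ rich in Ass1, were measured, and 2 were under the floor on every array, with sums from 263 to 369 on the high-fat and from 316 to 456 on the low-fat diet. Summed over 8 measured stellate cell markers, intensity was 2845, 3746 and 3850 on high-fat arrays 1, 2 and 3, against 3434, 3175 and 3119 on low-fat arrays 1, 2 and 3, with 0 of the 7 tested ones past the threshold. The stellate sums of high-fat arrays 2 and 3 lay above every low-fat array, and that of high-fat array 1 lay below them all. This order was noticed after the values were seen. Sums of neutrophil, endothelial, bile duct, erythroid and pancreatic markers overlapped between the diets. The part of these cells in the urea cycle values was not tested.

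The closeness of Otc and Arg1 was measured as the root mean square difference between their log2 values over the 6 arrays, each centred on its own mean. It was 0.060, which made Otc the nearest to Arg1 of the 6556 other genes compared and Arg1 the second nearest to Otc, after Inmt, a methyltransferase of indoles, at 0.054. Cps1 lay 0.118 from Arg1 and 0.135 from Otc, at place 32 of the genes nearest to Arg1 and place 72 of those nearest to Otc. Its own nearest genes were Aldh7a1, an enzyme of lysine breakdown, at 0.058 and Slc6a6, the taurine transporter, at 0.059. Of the genes nearest to Cps1, Arg1 was only at place 111 and Otc at place 198. The second nearest to Arg1 was Ndufb9, a subunit of respiratory complex I, at 0.077.

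Ass1 stood apart by the same measure. It lay 0.28 from Cps1, 0.36 from Otc and 0.37 from Arg1, and its nearest genes, the immunoglobulin segment Igkv7-33 and the ATPase gene Fignl1, lay at 0.032 and 0.037. Asl, by probe set 104566_at, lay between 0.47 and 0.75 from the other members, and its nearest genes were the transcriptional regulator gene Hes6 at 0.21 and the imprinted gene Phlda2 at 0.25. Of the genes nearest to Asl, Arg1 was nonetheless at place 116, Otc at 215 and Cps1 at 291, with Ass1 at 3479. Of those nearest to Ass1, Cps1 was at place 2937, Otc at 4314 and Arg1 at 4572. These distances and places are descriptions over 6 arrays that share their scaling.

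Of the neighbouring genes of the pathway, taken from 5 lists with 1 probe set per gene, 47 were tested and 0 passed an adjusted p of 0.05, against 0.915% of all 6557 genes so tested. A log2 fold change below 0 was found in 32 of the 47, against 48.7% of all genes. Arrays of the diets did not overlap for 8 lower genes, where 6.68% of all genes did so, and for 1 higher gene, where 7.82% did so. At an unadjusted p of 0.05, 8 of the 47 passed in limma's test, where 9.50% of all genes did.

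The 5 tested partners of the cycle had a median log2 fold change of -0.060, with 3 below 0. Slc25a15, the carrier that brings ornithine into the mitochondrion, read 6956, 4457 and 8591 on the high-fat arrays, against 5997, 6245 and 11344 on the low-fat arrays (log2 fold change -0.22, adjusted p = 0.904). Its arrays did not follow the order of Otc, the enzyme it feeds: high-fat array 3 was the second highest. Arg2, the mitochondrial arginase found mainly outside the liver, was dim at 112, 107 and 117 on the high-fat arrays, against 85.4, 99.9 and 108 on the low-fat arrays (0.20, adjusted p = 0.892).

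Among 10 tested genes that handle ammonia, glutamate and glutamine or carry amino acids into the cell, the 2 of smallest p encode transporters. Slc7a2, a carrier of arginine, ornithine and lysine, read 827, 563 and 1186 on the high-fat arrays, against 1839, 1640 and 2316 on the low-fat arrays. All high-fat arrays were below all low-fat arrays, and the log2 fold change was -1.22 ± 0.25 (SE), which limma gave an adjusted p of 0.0784. It passed without high-fat array 3 (-1.49, adjusted p = 0.0182) and with the replicate number as a block (adjusted p = 0.00792). Slc38a4, a carrier of neutral amino acids, read 8978, 8023 and 9230 on the high-fat arrays, against 11972, 10651 and 11577 on the low-fat arrays, also without overlap (-0.38, adjusted p = 0.351). The list's median was -0.035.

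Of the 7 tested genes that use arginine or ornithine for polyamines and nitric oxide, Azin1, an inhibitor of the antizyme that limits ornithine decarboxylase, read 1214, 1467 and 1499 on the high-fat arrays, against 1605, 1599 and 1925 on the low-fat arrays (log2 fold change -0.30, adjusted p = 0.587). Ddah2, which degrades methylated arginines, had a mean log2 difference of -0.39 (adjusted p = 0.618). Sat1, a polyamine acetyltransferase chosen after its values were seen, was the single higher gene without overlap, at 1360, 1309 and 1596 on the high-fat arrays against 854, 1259 and 1292 on the low-fat arrays (0.34, adjusted p = 0.640). The list's median was -0.088.

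The 14 tested enzymes of amino acid breakdown had a median of -0.15, with 12 below 0. Of them, 4 were lower without overlap, as were 6.68% of all genes. Tat, which opens the breakdown of tyrosine, was at 13797, 9815 and 10582 on the high-fat arrays, against 18010, 19400 and 21258 on the low-fat arrays (log2 fold change -0.79, adjusted p = 0.0742). Agxt, the alanine-glyoxylate transaminase, was at 2143, 1720 and 1384 on the high-fat arrays, against 2634, 2614 and 2440 on the low-fat arrays (-0.57, adjusted p = 0.251). Hal, the periportal histidine ammonia-lyase, releases ammonia directly and was chosen after its values were seen. Like Cps1, Otc and Arg1, it had high-fat arrays 2 and 3 below every low-fat array, but was lowest on high-fat array 2. It read 5277, 2005 and 2228 on the high-fat arrays, against 5888, 4735 and 5082 on the low-fat arrays (-0.86, adjusted p = 0.428). In this list 6 of 14 genes had high-fat arrays 2 and 3 both below every low-fat array, where 11.4% of all genes did.

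Of 11 tested regulators and receptors tied to the pathway, 6 had a log2 fold change below 0, with a median of -0.11, and 0 passed. Foxa1, a forkhead factor of liver genes, read 354, 508 and 607 on the high-fat arrays, against 342, 271 and 375 on the low-fat arrays (log2 fold change 0.55, adjusted p = 0.551). Onecut1, a factor of hepatocyte development, read 696, 435 and 272 on the high-fat arrays, against 321, 298 and 264 on the low-fat arrays (0.57, adjusted p = 0.687).

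**Figure D4:**
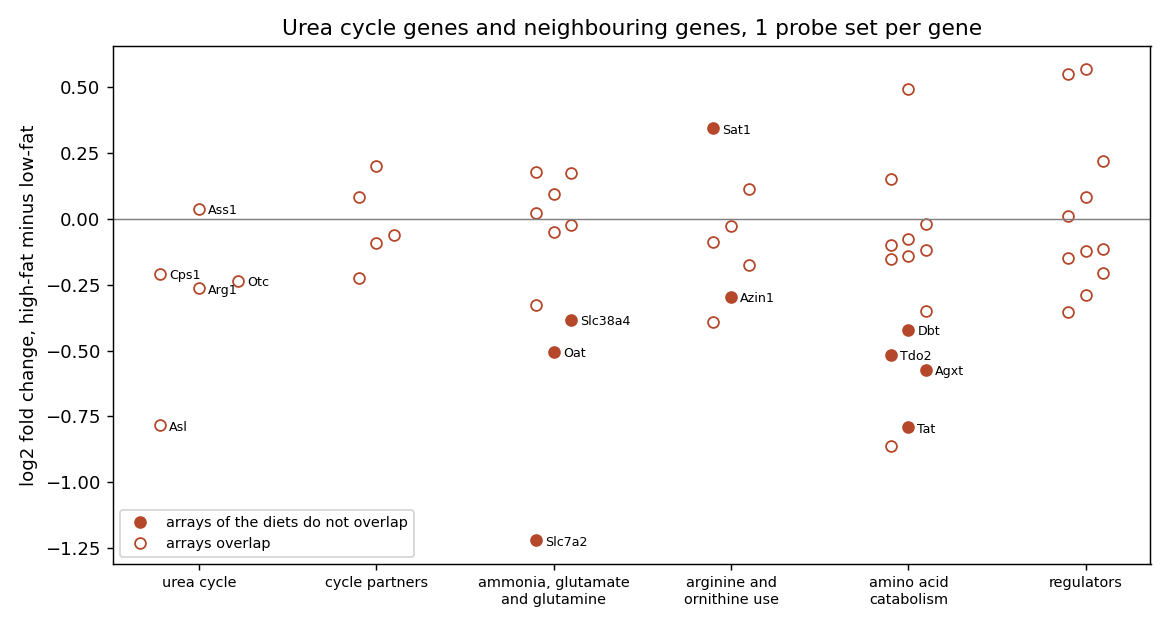
Log2 fold change, high-fat minus low-fat (vertical axis), of the urea cycle genes and of the genes in 5 neighbouring lists, with 1 probe set per gene. Filled points mark genes whose arrays do not overlap between the diets, none of which is a urea cycle gene, and Slc7a2 is the lowest point at -1.22.

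Across 17 other settings, among them other normalizations, floors and variance models and each array left out, 0 of the 6 urea cycle probe sets passed an adjusted p of 0.05 in any. Cps1, Otc, Arg1 and both Asl probe sets had a log2 fold change below 0 in each setting that tested them. The 6 probe sets' median lay between -0.40 and -0.10.

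**Figure D5:**
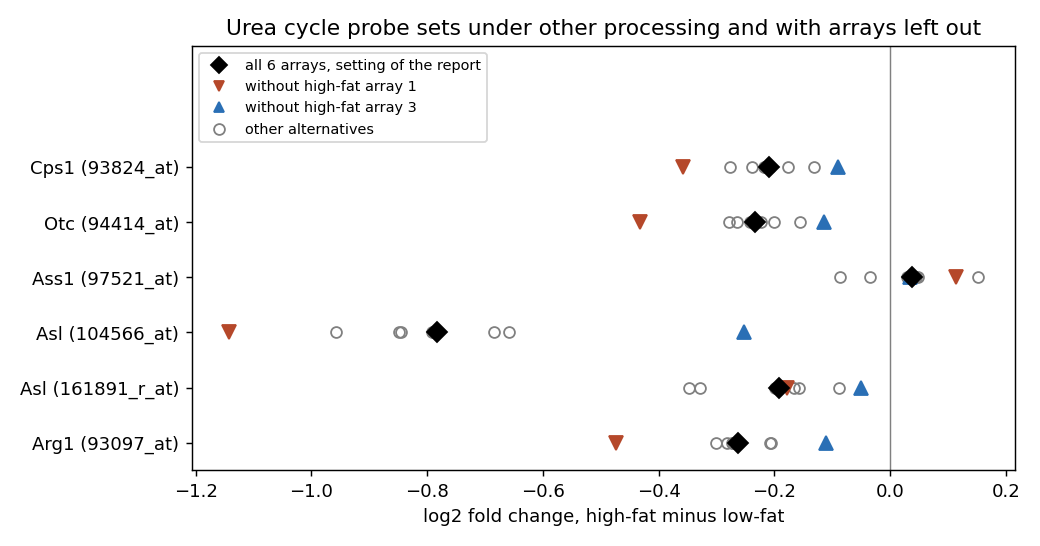
Log2 fold change of each urea cycle probe set (horizontal axis) with all 6 arrays, with high-fat array 1 or 3 left out and under the other alternatives. Without high-fat array 1 the points of Cps1, Otc and Arg1 move to -0.36, -0.43 and -0.47, without high-fat array 3 they move to -0.090, -0.11 and -0.11, and those of Ass1 lie on both sides of 0.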

How the data were processed

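The authors deposited 1 linear intensity per probe set and array. The software behind it is not given in the sources used here, but the deposited intensities show a scaling of whole arrays, with trimmed means (2% off each end) of 500.4 on all 6 arrays. Diet and array number came from the sample titles. Of the probe sets, 10855 had 1 gene symbol in the platform annotation, 396 had several and 1237 were not listed. Symbols were checked by gene ID against RefSeq (GRCm38.p6), which changed 0.

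Intensities under the pooled 30th percentile, 68.9, were set to that floor before log2 was taken. Without the 66 control probe sets, 8950 had at least 3 arrays above the floor. These entered limma (version 3.58.1, R 4.3.3; lmFit, eBayes with a trend), as high-fat minus low-fat, two-sided, with Benjamini-Hochberg adjustment over all of them. The 95% intervals are limma's. For neighbouring genes the probe set of highest mean log2 value was used. The number of arrays limits the precision. The method was tested on simulated data.

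Array medians lay between 171.5 and 188.4. The Gapdh 3′ to 5′ ratio averaged 1.12 ± 0.20 in high-fat and 0.98 ± 0.13 in low-fat livers (SD, n = 3 each). An exact permutation test gave p = 0.3, where 0.1 is the smallest possible. By array it was 1.22, 1.23 and 0.89 on high-fat arrays 1, 2 and 3, and 1.04, 1.07 and 0.82 on low-fat arrays 1, 2 and 3. Array 3 was thus the lowest of each diet, and the part of this in the urea cycle values was not tested.

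The members, lists and alternatives were chosen with earlier results of these data known. Named genes are all member probe sets, the genes past the threshold or else the 2 of smallest p in each neighbouring list, and the 2 genes nearest to each member by root mean square difference. Alb, Fgb, Hnf4a, G6pc, Glul, Slc1a4, Col1a2, Lcn2, Sat1 and Hal were later choices.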

Additional observations from a re-analysis of the deposited data

How the results depend on the processing

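The count of urea cycle probe sets past the threshold was 0 in limma's test and in each of the 17 alternatives, and with the replicate number as a block it was also 0, with a smallest adjusted p of 0.347. The median of the 6 stayed within 0.22 of its value, the pooled SD over arrays. Ass1 reversed when array 2 of either diet was dropped (-0.035 for high-fat, -0.087 for low-fat), and with single arrays left out it ranged from -0.087 to 0.15. All called probe sets numbered 74, and 8 with no filter on dim probe sets, 20 without the variance trend and 103 with the block. With single arrays left out they ranged from 26 to 75, at 28 when high-fat array 2 was dropped and at 31, 26 and 45 when low-fat arrays 1, 2 and 3 were dropped; the cause was not tested. In amino acid breakdown 1 gene, Tat, was called under quantile normalization, a floor at the 50th percentile, all 6 arrays above the floor, or robust eBayes, and 0 to 2 with single arrays left out, the 2 being Tat and Hal without high-fat array 1. In the ammonia and glutamate list 1 gene, Slc7a2, was called with the block, and 0 to 1 with single arrays left out. The replicate numbers do not pair the samples by the labels. Deviations of arrays with the same number correlated over probe sets with r of 0.071, 0.11 and 0.31. Arrays 1 and 2 of unlike number had r of 0.064 and 0.11. Array 3 of either diet had r from -0.21 to -0.12 with arrays 1 and 2 of the other diet.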
